A study of Brassica rapa subsp. pekinensis with 6 samples.

Results

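The genes described here are 7 genes of the flavonoid pathway in flower buds of Chinese cabbage, out of 35616 genes with at least 1 read in the 6 libraries. They were chosen by identifier and comprise the chalcone synthase (*CHS*) copies *Bra008792*, *Bra006224*, and *Bra023441*, the flavanone 3-hydroxylase gene *F3H* (*Bra036828*), the dihydroflavonol 4-reductase gene *DFR* (*Bra027457*), and the anthocyanidin synthase (*ANS*) copies *Bra013652* and *Bra019350*. All 7 had reads in each of the 6 libraries. The study describes *Bra027457* and *Bra019350* by these names, and the names of the other 5 come from the list of identifiers. The gene functions were not checked here against sequences.

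Developing flower buds were collected at the full-bloom stage from the female-sterile mutant *fsm* (libraries M1, M2, and M3) and from its wild-type line ‘FT’ (libraries F1, F2, and F4). ‘FT’ is a doubled-haploid line, and *fsm* is a single mutant line obtained from it by chemical mutagenesis of cultured microspores. The study describes the backgrounds of the lines as thought to be highly alike. However, it also lists many single-nucleotide variants specific to each line, and a larger share of reads mapped in the *fsm* libraries than in the ‘FT’ libraries. What these differences add to the counts of a gene was not tested. Buds of several plants were mixed for each replicate, and the study states that RNA of the replicates was pooled before library construction, so that p-values measure the spread between these libraries, which may be technical. Whole buds hold sepals, petals, stamens, and pistils, and fewer cells of a type cannot be told apart from less RNA per cell. The study describes the floral organs of *fsm* as relatively smaller, with thinner and shorter pistils, and its stamens as holding small amounts of viable pollen.

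Flavonoids are made from coumaroyl-CoA. CHS, the entry enzyme, condenses it with malonyl-CoA units to a chalcone, F3H hydroxylates the flavanone that follows to a dihydroflavonol, and DFR and ANS then lead to the anthocyanidins, the coloured backbones of anthocyanins. Dihydroflavonols can also be drawn off to flavonols, which are known from pollen and anthers. In *Arabidopsis*, *CHS* and *F3H* are grouped as early and *DFR* and *ANS* as late genes of the pathway, and the groups are controlled by different MYB factors.

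The early genes were abundant in both lines, and the late genes were scarce in ‘FT’ and higher in *fsm*. *DFR* and both *ANS* copies rose in *fsm*, by log2 fold changes of 5.45 for *DFR*, 2.70 for *Bra013652*, and 4.24 for *Bra019350*. *F3H* and the *CHS* copy *Bra008792* did not pass the test, and the other *CHS* copies had 0.486 (*Bra006224*) and 0.515 times (*Bra023441*) their ‘FT’ level. A gene was called changed when its adjusted p-value was at most 0.001 and its log2 fold change at least 1 in size, the first threshold of the study. The test was the quasi-likelihood test of edgeR, adjusted over all 35616 genes by the Benjamini-Hochberg method. Of the 7 genes, 4 passed, 3 higher and 1 lower in *fsm*, and 36.7% of all genes tested passed in either direction (18.7% higher and 18.0% lower). At the study's stricter limit of 4 for its final list of differentially expressed genes (DEGs), 2 of the 7 passed, both higher in *fsm*, against 5.26% of all genes (2.91% higher and 2.34% lower). The libraries of the lines did not overlap for 5 of the 7 genes (3 higher and 2 lower), and 75.0% of all genes had this property (37.5% in each direction).

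**Figure D1:**
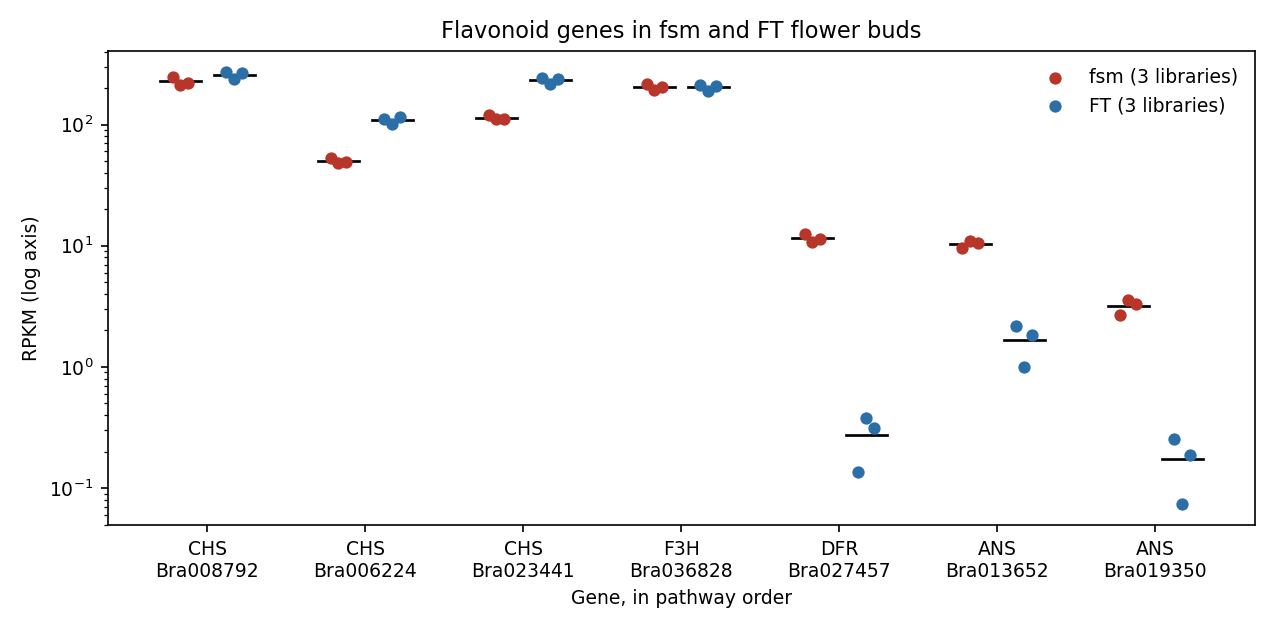
RPKM (reads per gene length and library depth, log axis) of the 7 flavonoid genes in pathway order. Each point is 1 library and each bar the mean of the 3 libraries of a line. *DFR* lay at 10.7 to 12.6 RPKM in *fsm* and at 0.136 to 0.379 RPKM in ‘FT’, whereas the points of *F3H* and of *CHS* *Bra008792* overlapped between the lines.

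The *CHS* copy *Bra008792* had the highest RPKM of the 7 genes in both lines. It had 8692, 7199, and 7395 reads in M1, M2, and M3 and 8143, 7052, and 7854 reads in F1, F2, and F4. Per length, these were 249, 213, and 221 RPKM in *fsm* and 270, 237, and 265 RPKM in ‘FT’. The ranges of the lines overlapped, with M1 above F2. The log2 fold change of *Bra008792* was -0.10 (standard error, SE, 0.06, 95% interval -0.23 to 0.03, adjusted p = 0.15, edgeR), so a change by the limit of 1 lay far outside the interval.

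*Bra023441*, the copy next in abundance, had 4135, 3746, and 3729 reads in the *fsm* libraries and 7246, 6457, and 7081 reads in the ‘FT’ libraries. Its level was 114 ± 4.31 RPKM in *fsm* and 232 ± 13.1 RPKM in ‘FT’ (SD, n = 3 each). All *fsm* libraries were below all ‘FT’ libraries. On the log2 scale it differed by -0.96 (SE 0.06, 95% interval -1.08 to -0.83), and its adjusted p was 5.7e-18 (edgeR). It missed the call by the limit on the fold change and not by its p-value. With scaling by total counts it was -1.03 and passed, as it did without F2 (-1.01) or, by less than 0.01, without M1.

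*Bra006224* was the least abundant *CHS* copy, with 1869, 1648, and 1654 reads in *fsm* and 3360, 2995, and 3458 reads in ‘FT’. The means were 50.5 ± 2.62 RPKM in *fsm* and 109 ± 8.12 RPKM in ‘FT’ (SD, n = 3 each), with no overlap. *Bra006224* had a log2 fold change of -1.04 (SE 0.07, 95% interval -1.18 to -0.90, adjusted p = 7.8e-18, edgeR), so that this copy fell past the limit by a small margin. Without F4 it was -0.99, and in a blocked fit of M1, M2, F1, and F2 it was -0.97, both short of the limit. The estimates of *Bra006224* and *Bra023441* thus lay on either side of the limit of 1, and the 95% interval of each included it.

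Because the *CHS* copies are counted in the same libraries, their proportions do not depend on scaling between libraries. *Bra008792* made up 58.0% ± 1.003 of the summed *CHS* RPKM in *fsm* and 42.9% ± 0.41 in ‘FT’ (SD, n = 3 each). *Bra023441* made up 29.1% ± 0.82 in *fsm* and 38.8% ± 0.33 in ‘FT’, and *Bra006224* made up 12.9% ± 0.19 in *fsm* and 18.2% ± 0.46 in ‘FT’. The spread between libraries was small against these differences. The ratio of *Bra023441* to *Bra008792* was 0.477, 0.522, and 0.506 in M1, M2, and M3 and 0.892, 0.918, and 0.904 in F1, F2, and F4, a difference of -0.85 on the log2 scale. The ratio of *Bra006224* to *Bra008792* was 0.214, 0.228, and 0.223 in *fsm* and 0.412, 0.424, and 0.439 in ‘FT’, a difference of -0.94. The ratio of *Bra006224* to *Bra023441* differed by only -0.08, with 0.450, 0.438, and 0.441 in *fsm* and 0.461, 0.462, and 0.486 in ‘FT’. Each of these ratios was lower in all *fsm* libraries than in all ‘FT’ libraries (two-sided exact permutation tests, p = 0.1 each and 0.1 after adjustment over 5 ratios, the smallest p that 3 libraries against 3 allow). Summed over the copies named here, *CHS* had 392 ± 26.0 RPKM in *fsm* and 599 ± 38.4 RPKM in ‘FT’ (SD, n = 3 each). Whether the genome holds further copies was not checked, so shares and sums refer to the named copies only.

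**Figure D2:**
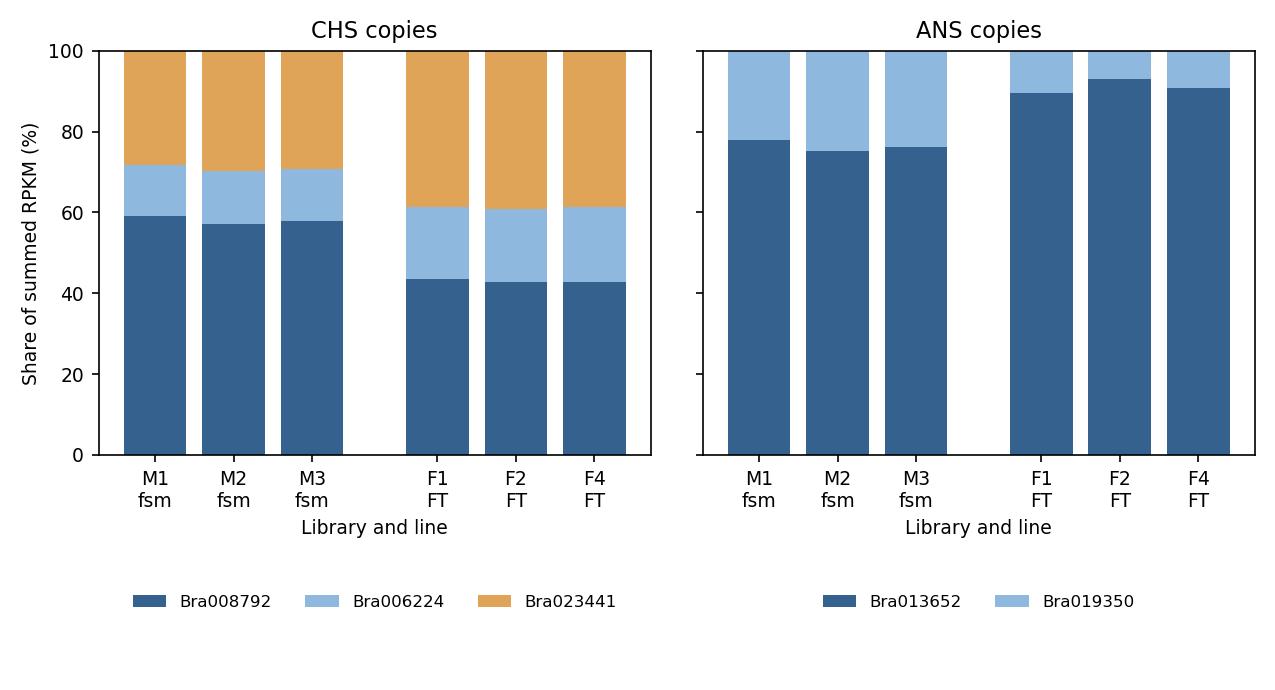
Share of each copy in the summed RPKM (%) of the 3 *CHS* copies (left panel) and of the 2 *ANS* copies (right panel), 1 bar per library. *Bra008792* held 57.1 to 59.1% of *CHS* in the *fsm* libraries and 42.7 to 43.4% in the ‘FT’ libraries, and *Bra019350* held 22.0 to 24.7% of *ANS* in *fsm* and 6.91 to 10.5% in ‘FT’.

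Reads covered, per the deposited percentages, between 99.2 and 99.9% of each *CHS* copy in all libraries. The counts are described as uniquely matched reads. In each library, however, their sum is larger than the number of uniquely matched reads, and of all mapped reads, that the study gives. What this adds to a gene's count is not known, and how reads shared between copies were treated was not tested. The copies are therefore uncertain relative to each other where their sequences are alike.

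*F3H* was the gene with the smallest difference between the lines. It had 6803, 5866, and 6225 reads in M1, M2, and M3 and 5759, 5154, and 5592 reads in F1, F2, and F4. The *fsm* libraries held more reads in all (2.8e+07 to 2.9e+07, against 2.5e+07 in each ‘FT’ library), and per length and depth the levels were 204 ± 12.1 RPKM in *fsm* and 203 ± 10.7 RPKM in ‘FT’ (SD, n = 3 each). The ranges overlapped almost completely. The log2 fold change of *F3H* was 0.08 (SE 0.06, 95% interval -0.05 to 0.20, adjusted p = 0.26, edgeR).

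*DFR*, which commits dihydroflavonols to anthocyanins and proanthocyanidins, showed the largest change of the 7 genes. It had 429, 353, and 369 reads in M1, M2, and M3 and 4, 11, and 9 reads in F1, F2, and F4. The levels were 12.6, 10.7, and 11.3 RPKM in *fsm* and 0.136, 0.379, and 0.311 RPKM in ‘FT’. No *fsm* library had fewer than 353 reads, and no ‘FT’ library had more than 11. The log2 fold change of *DFR* was 5.45 (SE 0.21, 95% interval 5.02 to 5.87, adjusted p = 3.1e-26, edgeR), which is 43.6-fold.

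The reads of *DFR* covered 97.9 to 98.9% of the gene in *fsm* and 27.12, 72.8, and 58.55% in F1, F2, and F4. In ‘FT’, the lowest level rests on 4 reads, close to the 3 reads (0.118 to 0.120 CPM, which scales reads to the library total) taken here as the floor of detection, a floor that covers counting error only. Among the genes with reads in a line, *DFR* stood at percentile 58.3 of mean RPKM in *fsm* and at percentile 13.2 in ‘FT’.

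The ratio of *DFR* to *F3H*, the step before it among the genes measured here, was 0.0586, 0.0560, and 0.0551 in M1, M2, and M3. In F1, F2, and F4 it was 0.000646, 0.00198, and 0.00150. The difference was 5.51 on the log2 scale (exact permutation test, two-sided p = 0.1, which is the smallest possible, and 0.1 after adjustment over 5 ratios). The level of *F3H* was thus 17.1 to 18.1 times that of *DFR* in the *fsm* libraries and 504 to 1548 times in the ‘FT’ libraries.

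ANS oxidizes the leucoanthocyanidins made by DFR, and its more abundant copy *Bra013652* also rose. It had 302, 333, and 322 reads in M1, M2, and M3 and 60, 27, and 49 reads in F1, F2, and F4. The levels were 10.3 ± 0.70 RPKM in *fsm* and 1.67 ± 0.61 RPKM in ‘FT’ (SD, n = 3 each), with no overlap and with F2 lowest. *Bra013652* changed on the log2 scale by 2.70 (SE 0.17, 95% interval 2.36 to 3.03, adjusted p = 8.9e-19, edgeR), which is 6.48-fold and below the stricter limit of 4.

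The copy *Bra019350* had 85, 109, and 100 reads in M1, M2, and M3 and 7 (F1), 2 (F2), and 5 (F4) reads in ‘FT’. Its levels were 2.70, 3.56, and 3.31 RPKM in *fsm* and 0.257, 0.0743, and 0.186 RPKM in ‘FT’. The 2 reads in F2 are under the floor of 3 reads. The log2 fold change of *Bra019350* was 4.24 (SE 0.33, 95% interval 3.58 to 4.90, adjusted p = 1.7e-15, edgeR), which is 18.9-fold. Its value was 3.89 without F2 and 3.81 when the prior count was 2, both short of 4 but past the limit of 1. The reads covered 89.57 to 97.95% of *Bra019350* in *fsm* and 14.53 to 47.49% in ‘FT’. *Bra013652*, which had more reads in ‘FT’ (27 to 60), was covered to 94.43 to 99.35% there.

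The *ANS* copies changed by unequal amounts. The ratio of *Bra019350* to *Bra013652* was 0.282, 0.328, and 0.311 in M1, M2, and M3 and 0.117, 0.0743, and 0.102 in F1, F2, and F4, a difference of 1.67 on the log2 scale. All *fsm* libraries had a higher ratio than all ‘FT’ libraries (exact permutation test, two-sided p = 0.1, which is the smallest possible, and 0.1 after adjustment over 5 ratios). Between these *ANS* copies, *Bra013652* remained the larger part, with 76.5% ± 1.37 of their summed RPKM in *fsm* and 91.1% ± 1.81 in ‘FT’ (SD, n = 3 each).

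Ordered by RPKM in *fsm*, the genes were *CHS* *Bra008792*, *F3H*, *CHS* *Bra023441*, *CHS* *Bra006224*, *DFR*, *ANS* *Bra013652*, and *ANS* *Bra019350*. The ranges of *Bra008792* and *F3H* overlapped, as did those of *DFR* and *Bra013652*. In ‘FT’, *Bra023441* stood above *F3H*, and *Bra013652* above *DFR*. There, *Bra008792* overlapped with *Bra023441*, and *DFR* with *Bra019350*. The other neighbours in these orders did not overlap.

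As sums over the copies named here, *ANS* had 0.971 to 1.35 times the RPKM of *DFR* in the *fsm* libraries and 2.84 to 18.0 times in the ‘FT’ libraries. *CHS* had 25.8 to 34.4 times the RPKM of *ANS* in *fsm* and 254 to 516 times in ‘FT’. The step from abundant early to scarce late genes was thus present in both lines and was smaller in *fsm*. Even in *fsm*, *DFR* and the *ANS* copies lay between percentiles 36.5 and 58.3 of genes with reads, against percentiles 87.5 to 98.3 for *CHS* and *F3H*.

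**Figure D3:**
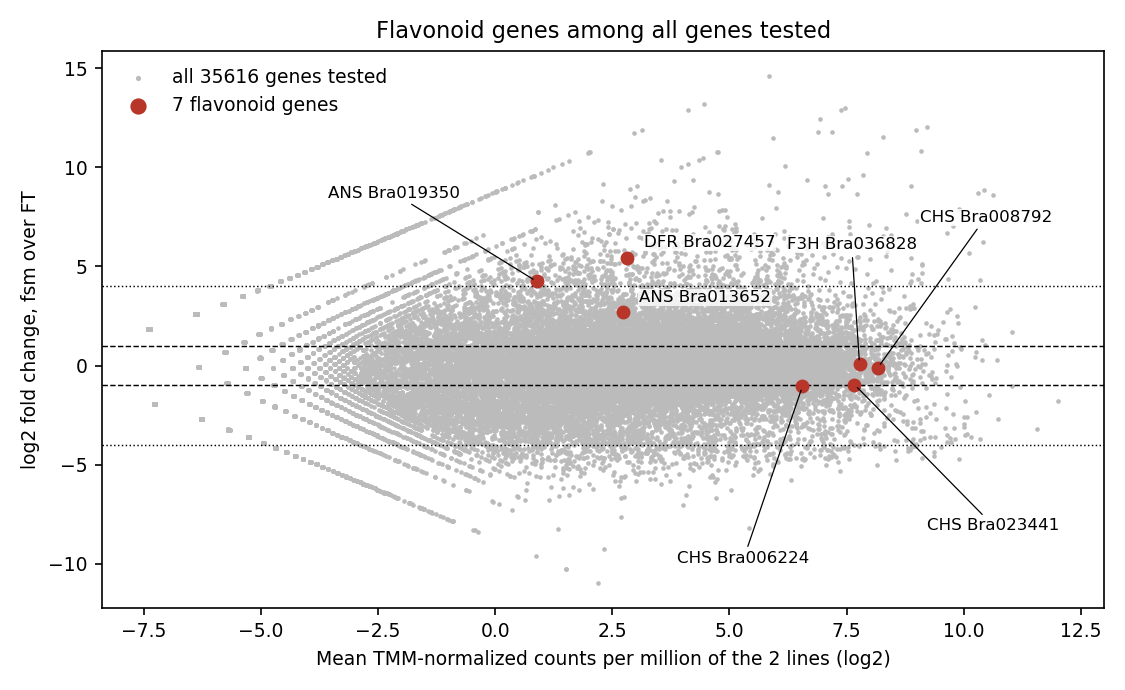
Log2 fold change (*fsm* over ‘FT’) against the mean normalized abundance (log2 CPM) of all 35616 genes tested (grey points), with the 7 flavonoid genes in red. Dashed lines mark a log2 fold change of 1 in size and dotted lines one of 4. *DFR* (5.45) and *ANS* *Bra019350* (4.24) lie above the upper dotted line, and the abundant *CHS* and *F3H* genes lie between -1.04 and 0.08.

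Within a line, the lowest or the highest library was the same for most of the 7 genes. F2 had the lowest RPKM of the ‘FT’ libraries in 6 of the 7 genes, with *DFR* as the exception, where F2 was highest. M1 had the highest RPKM of the *fsm* libraries in 5 of the 7, with both *ANS* copies as the exceptions, where M1 was lowest. Among the 4301 genes with a mean RPKM of at least 50, F2 was lowest in 36.8% and M1 highest in 51.5%, and these values are given as descriptions. *DFR* and the *ANS* copies lay below 50 RPKM, so these shares are no background for them. Their order in ‘FT’ also rests on few reads.

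Genes of the wider phenylpropanoid pathway were taken from the study's annotation by 3 process terms (phenylpropanoid metabolism, phenylpropanoid biosynthesis, and biosynthesis of anthocyanin-containing compounds). The part of that annotation used here holds genes with many reads in ‘FT’, so this list favours genes that are high in ‘FT’. Of its 18 genes outside the 7, 12 passed as lower in *fsm*, 0 passed as higher, and 6 did not pass, at the limit of 1 in edgeR's test. Among the 948 genes with as many reads in F1 as the list (4278 or more), 41.0% fell and 5.80% rose by the same rule, so that the choice by ‘FT’ reads alone goes with lower values in *fsm*. The median log2 fold change was -1.75 in the list and -0.73 in these 948 genes, and both are given as descriptions.

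Inside this list, the 5 genes annotated as acyltransferases of pollen wall assembly, the same broad activity term as that of *Bra008792* and *Bra023441*, all fell. *Bra000559* was the most abundant, with 197 ± 11.2 RPKM in *fsm* and 1580 ± 101 RPKM in ‘FT’ (SD, n = 3 each) and a log2 change of -2.94 (SE 0.06, edgeR's adjusted p = 4.8e-36). The 5 ranged from -2.94 to -1.93, below the values of all *CHS* copies. Both genes with the anthocyanin term fell as well, with log2 fold changes of -2.38 for *Bra008175* and -1.31 for *Bra015874*. The list favours genes high in ‘FT’, so their direction cannot be set against that of *DFR* and *ANS*. Neither *Bra008175* nor *Bra015874* has a more specific name in the sources used here.

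Of the other 11 genes, 5 fell. The O-methyltransferase gene *Bra010977* fell by 3.47 on the log2 scale, and the monooxygenase gene *Bra022803*, also annotated for gametophyte development, fell by 3.06. *Bra018311*, with the same terms as *Bra022803*, fell by 1.38. The remaining 6 did not pass, most of them by the limit on the fold change and not by the p-value. *Bra033613*, an oxidoreductase of phenylpropanoid biosynthesis, had the highest value among them with 0.77 (SE 0.06, adjusted p = 4.8e-15, edgeR).

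**Figure D4:**
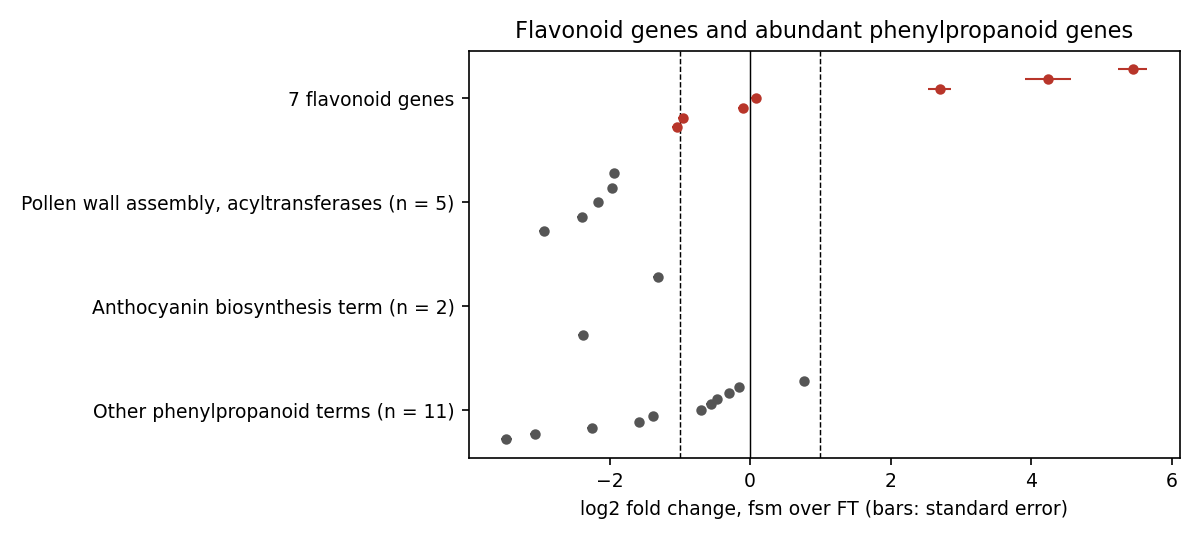
Log2 fold change (*fsm* over ‘FT’) with its standard error for the 7 flavonoid genes (red) and the 18 abundant phenylpropanoid genes (grey) by annotation, with dashed lines at 1 in size. The pollen wall genes lie between -2.94 and -1.93, and *DFR* and the *ANS* copies are the only points above the limit of 1. The choice of grey genes favours genes high in ‘FT’, so the lack of grey points there shows no trait particular to *DFR* and *ANS*.

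Genes of pollen also differed between the lines. The 6 *VGD1*, *AGP23*, and *RABA4D* genes (known from *Arabidopsis* pollen and pollen tubes), which are only some of the pollen genes that the study names, had a summed level of 91.7 to 110 RPKM in the *fsm* libraries and of 2116 to 2169 RPKM in the ‘FT’ libraries, and 6 of 6 were lower in *fsm*, none of them at 0. The study chose them for their change in these samples. The study names 4 other genes by pollen terms, added here after their values were seen, and of these 2 fell and 2 rose. *Bra037213* (pollen tube growth) had a log2 fold change of -4.26 and *Bra012579* (pollen tube development) one of -3.83, against 5.14 for *Bra003255* and 4.39 for *Bra020195*, both described as fatty acid reductases of pollen development. The first 6, *Bra037213*, and *Bra012579* went in the direction of *CHS* *Bra006224* and *Bra023441*. The pollen wall genes, from a list that favours genes high in ‘FT’, had the same direction. That direction was opposite to that of *DFR* and *ANS*, whereas *Bra003255* and *Bra020195* rose as *DFR* and *ANS* did. The part of these pollen genes in the levels of the flavonoid genes was not tested.

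A further 6 genes act near the pathway by their descriptions, all taken from the study's list of DEGs, so their large changes are not independent evidence. Of these, 3 rose and 3 fell. *UF3GT* (*Bra035004*) is described as a flavonoid 3-O-glucosyltransferase, and its substrate was not checked here. This gene had 65, 46, and 41 reads in M1, M2, and M3 and 0 reads in each ‘FT’ library. Against a floor of 3 reads over the ‘FT’ libraries together, it was at least 46.7-fold higher in *fsm* (adjusted p = 8.3e-13, edgeR). The quercetin 3-O-glucosyltransferase gene *UGT71B5* (*Bra039557*) was the most abundant of the 6 in *fsm*, with 96.5 ± 5.79 RPKM in *fsm* and 5.94 ± 0.62 RPKM in ‘FT’ (SD, n = 3 each), and rose by 4.09 on the log2 scale (SE 0.08).

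The other 4 had lower levels or belong to other branches. *TT10* (*Bra037510*), a laccase that acts on flavonoids in the *Arabidopsis* seed coat, had 14, 11, and 16 reads in M1, M2, and M3 and 0 in ‘FT’, at least 12.6-fold higher against the same floor. *TT12* (*Bra003361*), a transporter of flavonoid precursors in the *Arabidopsis* seed coat, had 0 reads in *fsm* and 16, 7, and 8 reads in F1, F2, and F4, at least 11.2-fold lower in *fsm*. The *CAD* genes *Bra030440* and *Bra023231* are described as cinnamyl-alcohol dehydrogenases, enzymes of the lignin branch. They fell by 4.37 and 4.22 on the log2 scale.

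The genes with the pattern most like that of *DFR* and *ANS* were sought by the distance of log2(CPM + 1) over the 6 libraries. Nearest to *DFR* were *Bra006987*, described as a hypothetical protein (distance 0.24, log2 fold change 5.74), and *Bra033743*, described as a protein with an FAD-binding domain (distance 0.26, log2 fold change 5.14). Nearest to *ANS* *Bra019350* was *Bra035882*, also a hypothetical protein (distance 0.19, log2 fold change 4.53), followed by *Bra008651*, without a description (distance 0.29, log2 fold change 3.71). Nearest to *ANS* *Bra013652* were *Bra034163* and *Bra007233*, also without one in the sources used here (distances 0.39 and 0.40, log2 fold changes 2.59 and 2.76).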

How the data were processed

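RNA of flower buds was sequenced in 3 *fsm* and 3 ‘FT’ libraries. The authors aligned clean reads to version 1.5 of the *Brassica rapa* genome with SOAPaligner/SOAP2. The deposited counts are described as uniquely matched reads per gene, and the listed lengths are coding lengths. The deposited RPKM values were checked to equal counts divided by that length and by the summed counts of a library. The authors also deposited the percent of each gene covered by reads, which slightly exceeds 100 in a few genes. A gene not listed in a library was taken as 0 reads.

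Counts of 35616 genes were tested without a filter by the quasi-likelihood test of edgeR 4.0.16 (R 4.3.3) with TMM factors and Benjamini-Hochberg adjustment. Depth was 2.5e+07 to 2.9e+07 reads, for which a floor of 3 reads is 0.102 to 0.120 CPM. Ratios within libraries were taken on RPKM and tested by exact permutation. Alternatives were DESeq2 1.42.0 (size factors or its test), total counts, a filter on low counts, a prior count of 2, a threshold of 4, limma 3.58.1 with RPKM on a log2 scale (pseudocount 1 or 0.1), a replicate block, and leaving out each library. The tests were tried on simulated data.

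The 7 genes and the gene lists were chosen with earlier results of these data known. All 7 are named, with the pathway and pollen lists and the 2 nearest genes by distance to *DFR* and to each *ANS* copy. The batch of the libraries is not given in the sources used here, so that batch and line cannot be told apart. Gene sequences and coordinates were not used here, because the reference annotation is of another build and pairs 1 of the 35616 identifiers and none of the 7.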

Additional observations from a re-analysis of the deposited data

How the results depend on the processing

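The 7 genes kept their direction under all 15 alternatives each. Among these, the threshold of 4 reuses the main fit, so it could not change a direction. *CHS* *Bra008792*, *F3H*, *DFR*, and both *ANS* copies also kept their side of the limit of 1. With a threshold of 4, 1873 genes passed, 1038 higher and 835 lower in *fsm*, and *Bra006224* (-1.04) and *Bra013652* (2.70) were no longer called. *Bra023441* gained the call with total counts (-1.03) and with limma on log2(RPKM + 1) (-1.02) or log2(RPKM + 0.1) (-1.03). The replicate block, over the 4 libraries numbered 1 and 2, gave 12216 genes and -0.97 for *Bra006224*, which lost its call. It changed no other call of the 7 genes. Same-numbered libraries are not known to share more than a number. Over genes, the correlations of their deviations from the line means were -0.06 (M1 and F1) and 0.08 (M2 and F2). Libraries with unlike numbers had correlations from -0.14 (M2 and F4) to 0.13 (M1 and F4). Deviations from a line mean depend on each other within the line, so these values cannot show whether libraries were paired.

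Leaving out 1 library gave 12052 to 12572 genes, 6185 to 6459 higher and 5816 to 6113 lower, and the log2 fold changes were -0.19 to -0.06 for *Bra008792*, -1.10 to -0.99 for *Bra006224*, -1.01 to -0.93 for *Bra023441*, 0.02 to 0.12 for *F3H*, 5.12 to 5.74 for *DFR*, 2.43 to 2.94 for *Bra013652*, and 3.89 to 4.64 for *Bra019350*. The log2 ratios within libraries moved least for the *CHS* copies (-0.88 to -0.82, -0.96 to -0.91, and -0.10 to -0.06) and more for *ANS* (1.49 to 1.81) and for *DFR* over *F3H* (5.04 to 5.85). The few ‘FT’ reads limit the late genes: on log2(RPKM + 1), which understates changes of low genes, *DFR* was 3.30 and *Bra019350* 1.83.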
